A study of Mus musculus with 6 samples.

Results

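Serglycin (Srgn), the syndecans Sdc1, Sdc2, Sdc3 and Sdc4 and the glypicans Gpc1, Gpc3, Gpc4 and Gpc6 are the core proteins of proteoglycans, and their mRNAs were measured in mouse embryonic stem (ES) cells. The members were all probe sets whose only gene symbol in the array's probe table is 1 of these 9 names, which gave 23 of 45037 probe sets tested, and 9 of 18193 genes. Srgn was chosen for its low values in clone A3, and Sdc3 for lower values in induced cultures. Those contrasts of those genes are therefore given below as descriptions without a test. The symbols cover 1 serglycin probe set, 13 syndecan probe sets (4 of Sdc1, 4 of Sdc2, 3 of Sdc3 and 2 of Sdc4) and 9 glypican probe sets (1 of Gpc1, 1 of Gpc3, 2 of Gpc4 and 5 of Gpc6).

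The cells were undifferentiated mouse ES cells kept on gelatin with serum and LIF, a cytokine that sustains self-renewal. They carried a FLAG-tagged coding sequence of human GTF2IRD2, a transcription factor gene of the TFII-I family, at the ROSA26 locus. Its promoter is repressed by tetracycline, and the study describes the expression in tetracycline as basal. The induced group held 3 cultures sampled 24 hours after tetracycline was removed, and the uninduced group held 3 cultures kept in tetracycline and sampled at 0 hours. Each group held 1 culture of each of the clones A3, A4 and A5, so both groups carried the transgene and the tetracycline-controlled system. Each clone is a single line, 0 arrays came from a line without the transgene, and the level of the human transcript itself was not analysed here. The study's own RT-PCR, scaled to Actb, gave more of the human transcript at 24 hours than at 0 hours in each clone. It gave the most in A3 at both times, and whether that bears on the clone values below was not tested. The insert sequence that the study prints for GTF2IRD2 is much shorter than its inserts for the related genes, so it is not known here whether the whole factor was made. Each culture was hybridised to 1 Affymetrix mouse genome array, and the values are log2 RMA values, on which a difference of 1 is a 2-fold difference. All p-values refer to the spread between these cultures and clones only.

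Proteoglycans carry long sulfated sugar chains on a protein core. Syndecans span the cell membrane and glypicans are held on its outer face by a glycosylphosphatidylinositol (GPI) anchor, and the heparan sulfate chains of both bind growth factors such as FGF, BMP and Wnt proteins and present them to their receptors. Serglycin differs from both families in that it is packed inside secretory granules, where its chains hold proteases and other cargo, and it is best known from mast cells, other blood cells and endothelium. In ES cells, heparan sulfate is known for its part in FGF and BMP signalling at the step where cells leave the self-renewing state.

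Array medians lay between 5.03 and 5.06, with pairwise correlations of 0.996 to 0.998 across probe sets. The ES cell label was borne out by its markers, since the 13 naive pluripotency genes averaged 11.01 to 11.14 on every array and Pou5f1, Sox2 and Nanog lay between 11.82 and 12.67. Of the 23 member probe sets, 15 had a mean of at least 5 over the 6 arrays. The other 8 were all 5 probe sets of Gpc6 and 3 of the 4 of Sdc2, and their values are low on the array's scale. Since arrays of bulk cultures were used, fewer cells making a transcript and less transcript per cell cannot be told apart.

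The stretches of genome just before the start sites of the members on which the results turn are printed here because they are the control regions next to the transcripts measured. They are the 250 bases before the start of a RefSeq gene model on GRCm38.p6, read in the direction of the gene, with CG dinucleotides in capitals. RefSeq windows were on hand for 6 of the 9 genes and for 2 starts of Srgn. Srgn lies on the minus strand of chromosome 10, with the window of the more upstream of those starts at chr10:62527446-62527695. Sdc3 lies on the plus strand with its window at chr4:130792287-130792536, and Sdc4 on the minus strand with its window at chr2:164443189-164443438. Gpc3 lies on the minus strand of the X chromosome with its window at chrX:52613975-52614224.
Srgn: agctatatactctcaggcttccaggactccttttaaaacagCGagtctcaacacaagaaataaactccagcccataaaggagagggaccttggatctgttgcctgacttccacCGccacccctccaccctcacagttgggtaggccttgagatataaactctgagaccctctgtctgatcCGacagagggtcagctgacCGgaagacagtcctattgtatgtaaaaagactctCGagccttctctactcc
Sdc3: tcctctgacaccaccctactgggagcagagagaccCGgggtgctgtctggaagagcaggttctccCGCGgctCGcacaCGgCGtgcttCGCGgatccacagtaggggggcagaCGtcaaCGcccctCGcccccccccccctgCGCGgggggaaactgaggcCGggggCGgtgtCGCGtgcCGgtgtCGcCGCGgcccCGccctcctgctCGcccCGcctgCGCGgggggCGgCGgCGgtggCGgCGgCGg
Sdc4: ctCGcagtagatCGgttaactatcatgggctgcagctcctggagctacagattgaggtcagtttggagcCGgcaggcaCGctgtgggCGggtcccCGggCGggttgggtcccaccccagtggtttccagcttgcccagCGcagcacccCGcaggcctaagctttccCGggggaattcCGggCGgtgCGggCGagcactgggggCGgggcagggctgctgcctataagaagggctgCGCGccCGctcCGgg
Gpc3: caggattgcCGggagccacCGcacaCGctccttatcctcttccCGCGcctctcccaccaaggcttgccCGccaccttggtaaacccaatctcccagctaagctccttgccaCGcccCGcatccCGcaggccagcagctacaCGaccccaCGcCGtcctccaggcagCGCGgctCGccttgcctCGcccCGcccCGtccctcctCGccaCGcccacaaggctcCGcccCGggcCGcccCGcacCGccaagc
The Srgn window holds 5 CG dinucleotides, and 49.6% of the 32851 windows of all genes hold as many or fewer. Its other window, at chr10:62507758-62508007, holds 3, and 37.8% of windows hold as many or fewer. The windows of the syndecans and glypicans are richer in CG. That of Sdc3 holds 32, with 96.0% of windows at or below it, that of Gpc3 holds 25 (90.4%), that of Sdc4 holds 19 (82.1%), that of Gpc4 holds 18 (80.3%) and that of Sdc1 holds 10 (64.4%). The median over all windows is 6. A core sequence bound by TFII-I family factors was searched on both strands as AGATTA or as those letters with G in place of the first A, the last A or both, and 26.8% of all windows hold it. It was found 2 times in the Gpc3 window, and in those of Sdc4 and Sdc1 1 time each. There were 0 matches in the windows of Sdc3 and Gpc4 and in both of Srgn. The letters GGGCGG, a GC box, occur on either strand in 32.7% of windows. They stand 3 times in the Sdc3 window, 3 times in that of Gpc3, 3 times in that of Sdc1, 4 times in that of Sdc4 and 1 time in that of Gpc4, with 0 in both windows of Srgn. The letters TATAAA occur in 12.4% of windows, and among these members in the upstream window of Srgn alone. Each match describes the letters of the window and no more.

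Serglycin was lowest in clone A3 and highest in clone A5, at both times. Its probe set 1417426_at had 4.26 in A3, 5.83 in A4 and 6.71 in A5 among induced cultures, against 3.64 in A3, 5.76 in A4 and 6.39 in A5 among uninduced cultures. Both arrays of A3 lay below the 4 others, and both arrays of A4 lay below both of A5, so that the clones did not overlap. As clone means, A3 had 3.95, A4 had 5.80 and A5 had 6.55. A3 minus A4 was -1.85 ± 0.13 and A3 minus A5 was -2.60 ± 0.13 (log2, SE of the clone model, 2 arrays per clone). A4 minus A5 was -0.76 ± 0.13 in the same model, with a limma adjusted p of 0.256. A4 and A5 were therefore not called different, although their arrays did not overlap. On the linear scale the A3 mean was 3.59-fold lower than that of A4 and 6.07-fold lower than that of A5, and the A4 mean was 1.69-fold lower than that of A5. The folds against A3 are uncertain, since its values of 4.26 and 3.64 lie in the low range of arrays whose 25th percentiles were 3.61 to 3.64. Among all probe sets tested, Srgn ranked 1 from the lowest for A3 minus the mean of A4 and A5, and 6 for the range of the clone means. Among probe sets with 1 symbol it ranked 3 for that range. Srgn was chosen on these clone values.

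**Figure D1:**
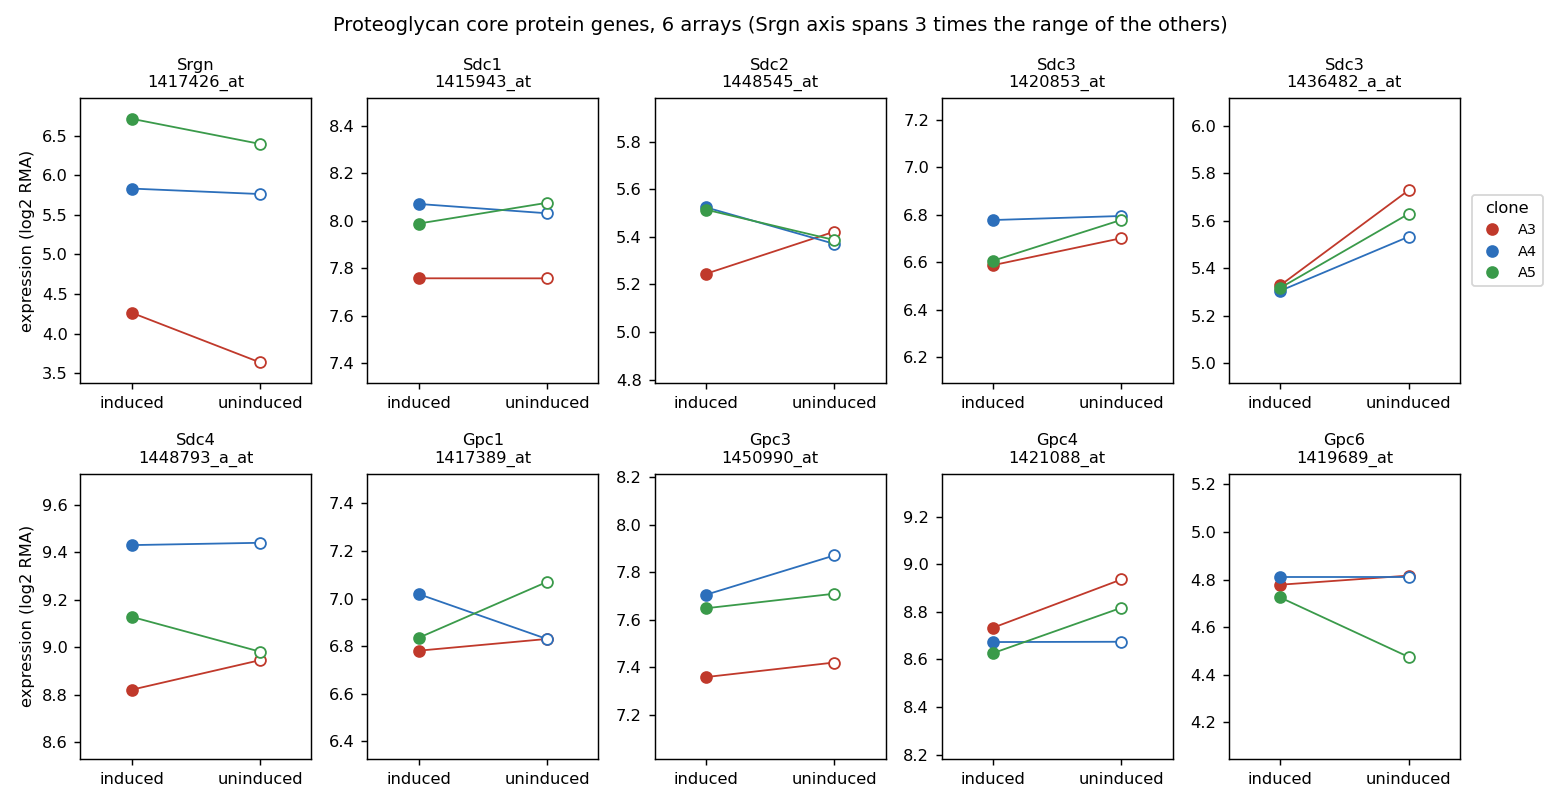
Expression (log2 RMA) of the highest probe set of each of the 9 genes, and of a second Sdc3 probe set, on the 6 arrays, with induced cultures (filled) left of uninduced cultures (open) and a line joining the arrays of 1 clone. The Srgn axis spans 3 times the range of the others. Srgn was lowest in A3 and highest in A5 at both times, and Sdc3 1436482_a_at had lower values in the induced culture of every clone.

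The genes nearest in pattern to Srgn had A3 lowest, which follows from how they were picked. The 5 genes whose values over the 6 arrays, each centred on its own mean, were nearest to those of Srgn were Pttg1 (root mean square difference 0.38), which encodes securin, Qk (0.40), an RNA-binding protein, Ccnd2 (0.55), a G1 cyclin, Pkdcc (0.58), a secreted kinase, and Mipol1 (0.59). For scale, the standard deviation of Srgn itself over the arrays was 1.11. For Pttg1 the clone mean was 9.57 for A3, 11.46 for A4 and 11.52 for A5. For Qk it was 6.81 for A3, 8.40 for A4 and 8.62 for A5. In both genes A3 was lowest, but A4 and A5 stood closer to each other than they did for Srgn. The 5 were taken from 20442 candidate genes, and 4 of them were again among the 5 nearest once the means of the induced and uninduced groups had been taken out. Taking out the group means leaves the clone differences in place, so nothing is read from that count.

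Among the other members the clones differed far less, with a median range of clone means near that of all probe sets. A3 was again the lowest in Sdc4, Gpc3 and Sdc1, which had the smallest p among them. By the moderated F-test of limma, 2.18% of all probe sets differed between clones at an adjusted p under 0.05, and 0 of the 22 member probe sets other than Srgn did. Sdc4, the most widely expressed syndecan, which gathers at focal adhesions and binds protein kinase C alpha, came closest. Its probe set 1448793_a_at had 8.82 in A3, 9.43 in A4 and 9.13 in A5 among induced cultures, against 8.95 in A3, 9.44 in A4 and 8.98 in A5 among uninduced cultures. Both arrays of A4 lay above the other 4, and both arrays of A3 lay below the other 4, though the uninduced A3 and A5 arrays (8.95 and 8.98) nearly met. The F-test gave an adjusted p of 0.050003, just above the threshold of 0.05. A3 minus A4 was -0.55 ± 0.09 (SE), a level 1.47-fold lower in A3, with a limma adjusted p of 0.0229. Sdc4 was the only member other than Srgn past the threshold in any pair of clones. The share of all probe sets called was 2.94% for A3 minus A4, 1.68% for A3 minus A5 and 0.0511% for A4 minus A5. The other Sdc4 probe set, 1417654_at, had 5.90 in A3, 6.15 in A4 and 6.09 in A5 among induced cultures, against 5.62 in A3, 6.17 in A4 and 5.89 in A5 among uninduced cultures. A4 was again the highest, but the induced A3 array overlapped the arrays of A5, and A3 minus A4 was -0.40 with a limma adjusted p of 0.0788. In Sdc4 the highest clone was thus A4, whereas in Srgn it was A5. A4 minus A5 passed the threshold in neither gene. The F-test of Sdc4 moved to either side of the threshold with the processing, with adjusted p between 0.00171 and 0.531 over the alternatives.

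Gpc3 and Sdc1 had the same clone order of A3 lowest, without passing the test. Gpc3, a glypican that restrains hedgehog signalling and whose human gene is mutated in an overgrowth syndrome, had 7.36 in A3, 7.71 in A4 and 7.65 in A5 among induced cultures, against 7.42 in A3, 7.87 in A4 and 7.71 in A5 among uninduced cultures. Both A3 arrays lay below the other 4. A3 minus A4 was -0.40 (adjusted p = 0.0501 in limma) and A3 minus A5 was -0.29 (adjusted p = 0.181), and the F-test gave 0.104. Sdc1, the main syndecan of epithelia, had at probe set 1415943_at 7.76 in A3, 8.07 in A4 and 7.99 in A5 among induced cultures, against 7.76 in A3, 8.03 in A4 and 8.07 in A5 among uninduced cultures. A3 again lay below the other 4 arrays, and the F-test gave an adjusted p of 0.196. The other 3 probe sets of Sdc1 gave adjusted p of 0.438 to 0.732.

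**Figure D2:**
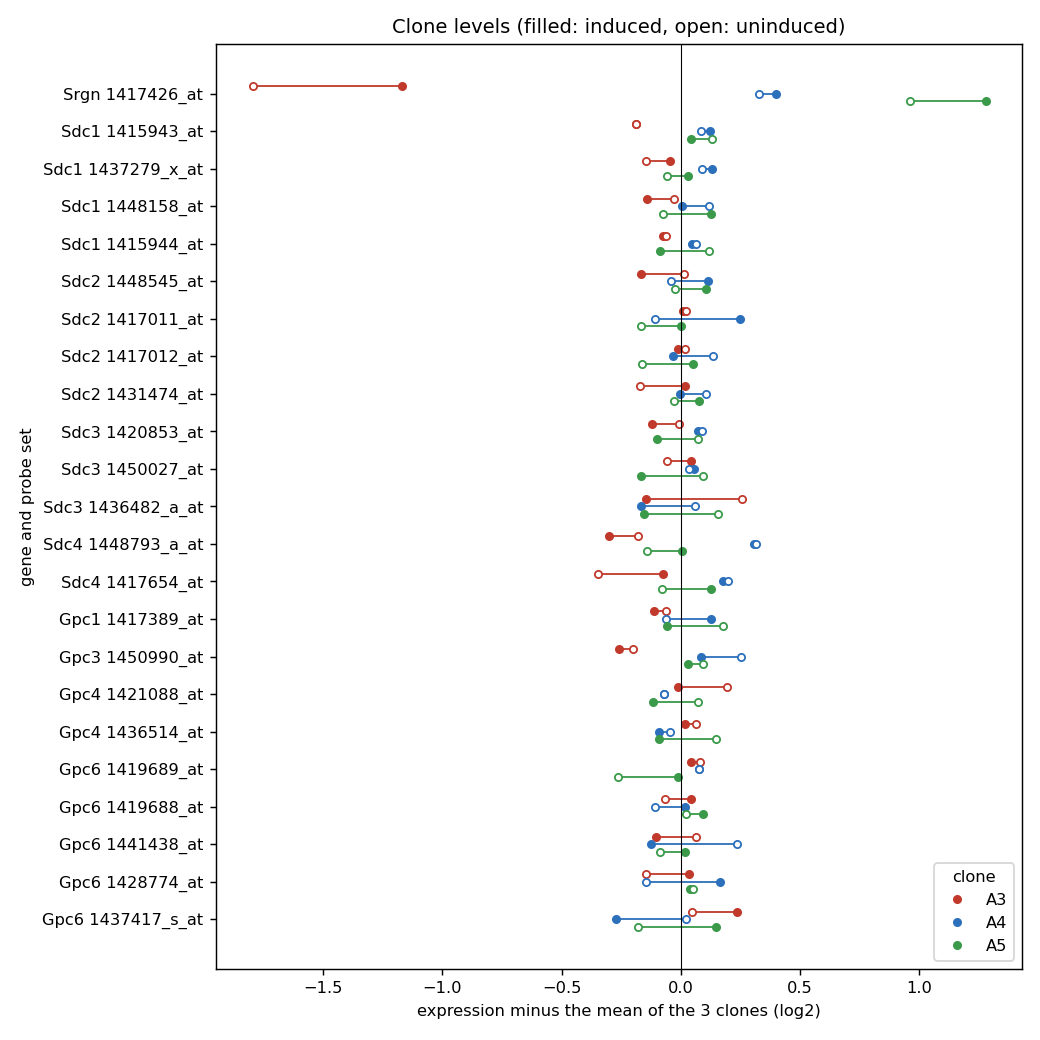
Each array's value minus the mean of the 3 clones (log2) for the 23 member probe sets, with filled points for induced and open points for uninduced cultures, joined within a clone. Srgn spreads from -1.80 to 1.28 across the arrays, while the other members stay between -0.35 and 0.32.

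Over the 22 member probe sets other than Srgn, both A3 arrays lay below the other 4 in 3 and above them in 0. Of all probe sets 13.5% had A3 below and 12.1% had A3 above, so the count below was near the share over all. The mean of A3 was below the mean of A4 and A5 in 15 of the 22, against 52.8% of all probe sets, and in 11 of the 14 with a mean of at least 5, against 50.7%. The median of A3 minus the other clones was -0.09 over the 22 and -0.01 over all probe sets. The median range of the clone means was 0.14 over the 22 and 0.14 over all probe sets. Between the other 2 clones, A4 exceeded A5 in 14 of the 22. Gpc4 ran the other way, with A3 minus the other clones of 0.14 and 0.06 at its 2 probe sets, and the F-test gave adjusted p of 0.608 and 0.759. Sdc2, Sdc3, Gpc1 and Gpc6 had adjusted p of 0.456 to 0.907 in that test. Members of 1 gene share their transcript and are not separate observations.

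Sdc3, chosen for lower values in induced cultures, had induced arrays all below uninduced arrays at 1 of its 3 probe sets. Sdc3 is the syndecan best known from the developing nervous system. Its probe set 1436482_a_at had 5.33 in A3, 5.31 in A4 and 5.32 in A5 among induced cultures, against 5.73 in A3, 5.53 in A4 and 5.63 in A5 among uninduced cultures. All 3 induced arrays lay below all 3 uninduced arrays, as they did in 4.61% of all probe sets, and the induced arrays were nearly equal. The difference was -0.31 ± 0.07 (SE, n = 3 per group), or 1.24-fold lower in induced cultures, with -0.40 for A3, -0.23 for A4 and -0.31 for A5. Among all probe sets this difference ranked 79 from the lowest. The probe set with the highest values, 1420853_at, had 6.59 in A3, 6.78 in A4 and 6.61 in A5 among induced cultures, against 6.70 in A3, 6.79 in A4 and 6.78 in A5 among uninduced cultures. Those groups overlapped, and the difference was -0.10 ± 0.08, with -0.11 for A3, -0.017 for A4 and -0.17 for A5. The third, 1450027_at, differed by -0.05 ± 0.08, with 0.10 for A3, 0.020 for A4 and -0.26 for A5, so the probe sets of this gene did not move together in A3 and A4. The suffix of 1436482_a_at marks probes shared by several transcript variants of 1 gene.

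The genes nearest in pattern to 1420853_at were Apln, Gm16136, Plbd2, Cryzl1 and Marveld1, at root mean square differences of 0.01 to 0.02. The standard deviation of that probe set over the arrays was only 0.08, and 0 of these 5 remained nearest when the group means had been taken out.

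Of the other 8 member genes, 0 passed the test of induced against uninduced cultures. With limma, 0% of all probe sets passed an adjusted p under 0.05, and 0 of the 20 member probe sets other than those of Sdc3 did. At an unadjusted p under 0.05 there were 1404 of all probe sets by limma, 2597 with clone as a block and 1681 by the methods' t-test. Of the 23 member probe sets, 12 were higher and 11 lower in induced cultures, and their median difference was 0.00, as over all probe sets. Among the 15 with a mean of at least 5, 5 were higher and 10 lower. Those 10 include the 3 probe sets of Sdc3, which was chosen on this contrast. Leaving out Sdc3 and Srgn, differences ran from -0.14 to 0.17. The 95% intervals of 22 of the 23 lay within a 2-fold difference in either direction in this fit, which holds no clone term, and Srgn was the exception. With clone as a replicate block its interval, 0.10 to 0.58, lay within a 2-fold difference too.

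Srgn differed by 0.34 ± 0.76 between induced and uninduced cultures (limma adjusted p = 1.00), with a 95% interval of -1.40 to 2.08 that includes the spread between the clones. Within the clones it was 0.63 for A3, 0.07 for A4 and 0.32 for A5, so the induced culture was the higher in each clone. The clone with the lowest level had the largest difference, and its 2 values, 4.26 induced and 3.64 uninduced, lie in the low range of the array. Of the other members, Sdc1 1437279_x_at (0.10 for A3, 0.04 for A4 and 0.09 for A5) and Gpc6 1419688_at (0.11 for A3, 0.13 for A4 and 0.07 for A5) were also higher in all 3 clones. Among the members 3 probe sets were higher in all 3 clones and 6 were lower, where 12.2% of all probe sets were higher and 13.7% were lower. Of those 6, 2 are probe sets of Sdc3, which was chosen on this contrast, and the other 20 member probe sets held 3 that were higher and 4 that were lower. Counted as groups, 1 member had all induced arrays below the uninduced arrays (the Sdc3 probe set above) and 0 had them above, where 4.61% of all probe sets were below and 3.35% were above. Nothing is read from the count for Sdc3, and among the other 20 member probe sets 0 were below and 0 above.

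**Figure D3:**
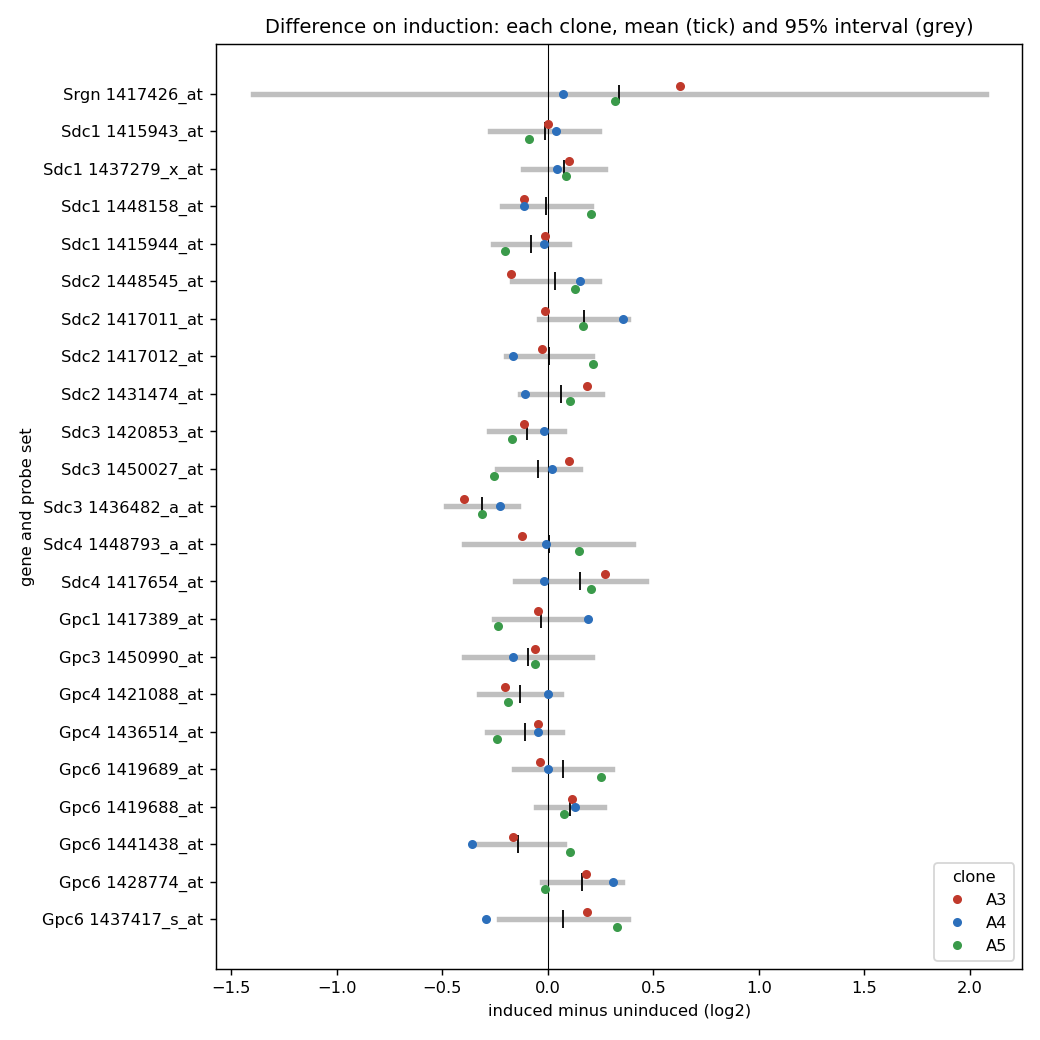
Induced minus uninduced (log2) for the 23 member probe sets, with 1 point for each clone, a tick at the mean and a grey bar for the 95% interval of the limma fit. The interval of Srgn runs from -1.40 to 2.08, and those of the other members stay between -0.48 and 0.46.

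The glypicans with a mean of at least 5 had differences just below 0 at all 4 of their probe sets. Gpc4, a glypican with a known part in Wnt signalling of mouse ES cells, had at probe set 1421088_at 8.73 in A3, 8.67 in A4 and 8.63 in A5 among induced cultures, against 8.94 in A3, 8.67 in A4 and 8.82 in A5 among uninduced cultures. The groups overlapped, and the A4 arrays were nearly equal. The difference was -0.13 with a 95% interval of -0.33 to 0.06, and at its other probe set, 1436514_at, it was -0.11 with an interval of -0.29 to 0.07. Gpc3 differed by -0.10 with an interval of -0.40 to 0.21, and its induced array was the lower in each clone. With clone as a replicate block the interval of Gpc3 was -0.26 to 0.06. Gpc1, the glypican most studied in the nervous system, had 6.78 in A3, 7.02 in A4 and 6.84 in A5 among induced cultures, against 6.83 in A3, 6.83 in A4 and 7.07 in A5 among uninduced cultures. The groups overlapped, and Gpc1 differed by -0.03 with an interval of -0.25 to 0.19, with -0.05 for A3, 0.19 for A4 and -0.24 for A5.

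The remaining syndecans showed no shared direction. Sdc4 differed by 0.00 at 1448793_a_at and by 0.15 at 1417654_at, and Sdc1 by -0.08 to 0.08 over its 4 probe sets. Sdc2, a syndecan of mesenchymal cells, had 5.24 in A3, 5.52 in A4 and 5.51 in A5 among induced cultures, against 5.42 in A3, 5.37 in A4 and 5.39 in A5 among uninduced cultures, at its only probe set with a mean of at least 5. The difference there was 0.03 and had opposite signs in A3 (-0.18) and A4 (0.15). Gpc6, a glypican of the growing skeleton, differed by -0.14 to 0.16 over 5 probe sets whose means were 2.76 to 4.74. At such levels a probe set may carry little signal from its transcript.

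The genes that build, edit and read the sugar chains were taken from 11 lists that name 154 genes, of which 149 were measured by a probe set with 1 symbol. The clones differed for 8 of the 149 (5.37%), against 562 of 18193 genes (3.09%) when each gene is represented by its highest probe set. Between induced and uninduced cultures 0 of the 149 passed the threshold.

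Of the enzymes that build the chains, Hs6st2, which adds sulfate to heparan sulfate at the 6-O position, had 6.01 in A3, 4.38 in A4 and 4.02 in A5 among induced cultures, against 5.51 in A3, 4.33 in A4 and 4.38 in A5 among uninduced cultures. It was 2.79-fold higher in A3 than in the mean of the other clones (limma F-test adjusted p = 0.00628), with both A3 arrays above the other 4. It was called at 1 of its 4 probe sets, and the fold is uncertain because the values of A4 and A5 lie in the low range of the array. Sulf1, an enzyme outside the cell that removes 6-O-sulfate from finished chains, was 1.69-fold higher in A3 (adjusted p = 0.00723, called at 2 of 3 probe sets). It had 8.82 in A3, 7.96 in A4 and 8.01 in A5 among induced cultures, against 8.71 in A3, 8.05 in A4 and 8.02 in A5 among uninduced cultures. Slc26a2, a sulfate transporter that supplies sulfate for the chains, was 1.54-fold lower in A3 (adjusted p = 0.0479, called at 2 of 3 probe sets). Its A3 arrays had 6.13 induced and 6.52 uninduced. By pairs, A3 minus A5 passed the threshold (limma adjusted p = 0.0289) and A3 minus A4 did not (limma adjusted p = 0.0808).

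Genes acting on the anchored core and on growth factors that bind the chains changed in both directions. Pgap1, which remodels GPI anchors, was 1.55-fold higher in A3 (adjusted p = 0.0176, called at 1 of 2 probe sets), and Furin, a proprotein convertase that cleaves Gpc3 among many other substrates, was 1.42-fold lower (adjusted p = 0.0271, with 1 probe set). Of 18 ligands, 3 were called, where 3.09% of all genes were. Fgf4, the FGF that ES cells make themselves, was 1.41-fold higher in A3 (adjusted p = 0.0287, called at 2 of 4 probe sets). Bmp4 was 1.53-fold lower in A3 (adjusted p = 0.0111, with 1 probe set), and Hbegf, an EGF receptor ligand with a heparin-binding domain, was 1.38-fold lower (adjusted p = 0.0442, called at 2 of 2 probe sets). In each of these 8 genes both A3 arrays lay to the same side of the other 4. Of all probe sets, 13.5% had both A3 arrays below the other 4 and 12.1% had them above. The 8 were picked by the clone test on these same arrays, so nothing is read from that count.

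**Figure D4:**
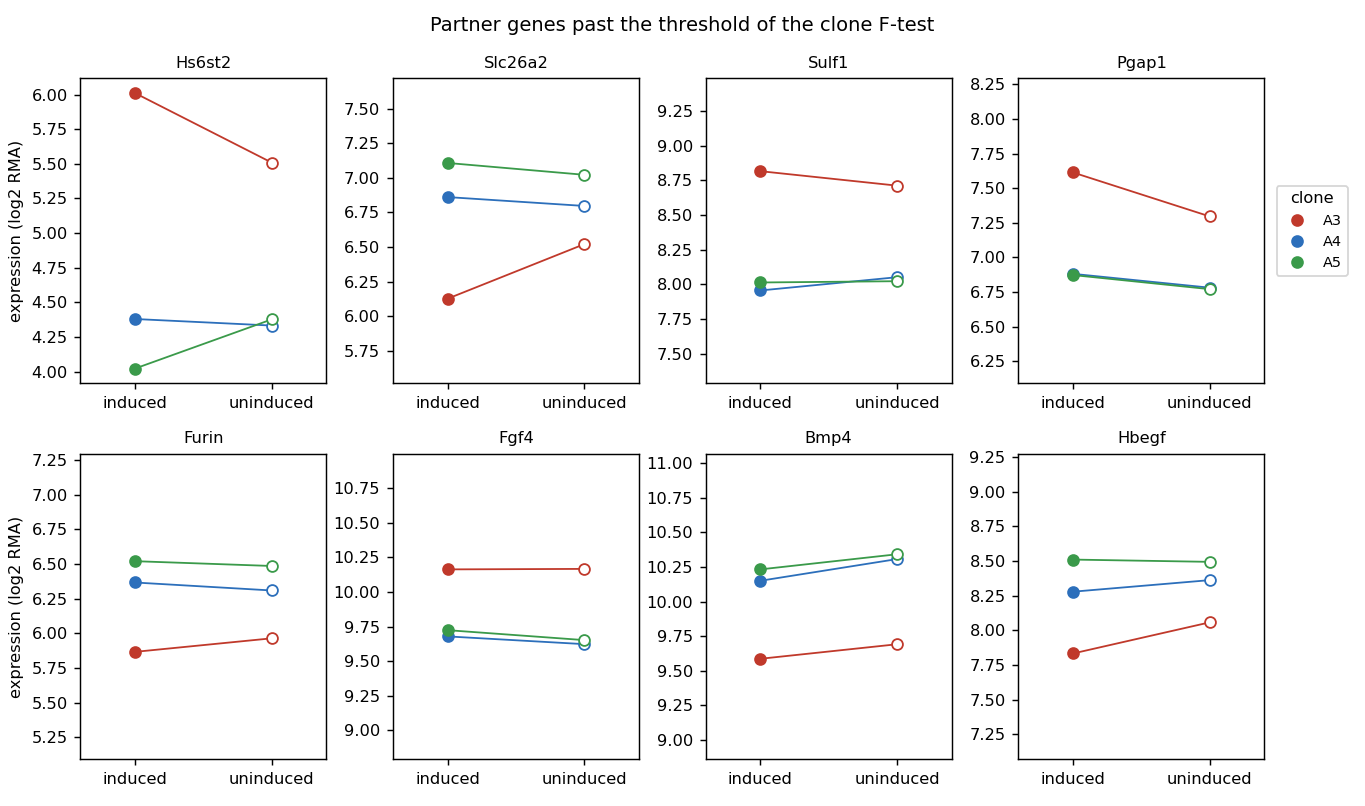
Expression (log2 RMA) of the 8 partner genes past the threshold of the clone F-test, with induced cultures (filled) left of uninduced cultures (open), a line joining the arrays of 1 clone and axes of equal span. Hs6st2, Sulf1, Pgap1 and Fgf4 were higher in A3, and Slc26a2, Furin, Bmp4 and Hbegf were lower in A3 than in A4 and A5.

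In the other 7 lists 0 genes were called between clones by the F-test. Of 23 further proteoglycan cores, Hspg2, which encodes the basement membrane proteoglycan perlecan, had the smallest p on induction. It had 8.26 in A3, 8.28 in A4 and 8.24 in A5 among induced cultures, against 8.43 in A3, 8.46 in A4 and 8.55 in A5 among uninduced cultures. Those groups did not overlap, and the difference was -0.22 ± 0.07 (limma adjusted p = 1.00). All induced arrays lay below the uninduced arrays in 4.61% of all probe sets. Hspg2 was picked by its p, so nothing is read from the lack of overlap. Hs6st3, named after its values were seen, was the other of the 2 partner genes with an unadjusted p under 0.05, at 0.21 ± 0.07 (limma adjusted p = 1.00). For the basement membrane proteoglycan genes Col18a1 and Agrn, the F-test between clones gave adjusted p of 0.184 for Col18a1 and 0.204 for Agrn.

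Enzymes of the linker that joins chain to core gave 0 calls among 6, with F-test adjusted p of 0.404 for Xylt2, 0.443 for B3galt6 and 0.527 for Pxylp1. The 5 heparan sulfate polymerase genes gave 0 calls, with 0.111 for Extl1, 0.381 for Extl3 and 0.418 for Ext1. Among 16 chondroitin sulfate enzymes there were also 0 calls, with Chst15 at 0.0810 and Chst12 at 0.229. Dsel (0.474) was named for its p on induction (limma, 0.0552 unadjusted). The 13 partners of syndecan tails gave 0 calls, with the kinase gene Prkca at 0.0874 and the adaptor gene Gipc1 at 0.377. The adaptor gene Sdcbp2 (0.849) was named for its p on induction (limma, 0.0796 unadjusted). The 16 receptors and other heparan sulfate-dependent proteins also gave 0 calls, with Slit2 at 0.107, Fgfr2 at 0.191 and Ptch1 at 0.300. These are calls of the F-test. By pairs of clones, A3 minus A4 passed the threshold for Chst15 (0.44, limma adjusted p = 0.0374) and Prkca (0.44, limma adjusted p = 0.0413). It did so for 2.94% of all probe sets. In both genes the A3 arrays lay above the other 4.

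The mRNAs of proteins that serglycin stores in granules were mostly low. Of 16 granule genes 2 had a mean of at least 5 (Prtn3 at 5.76 and Prf1 at 5.20, named after their values were seen), and 0 were called between clones or on induction. The F-test gave an adjusted p of 0.334 for Mcpt8, which encodes a basophil protease, and of 0.404 for Gzma and 0.879 for Gzmc, which encode granzymes. Gzmc was named for its p on induction (limma, 0.0889 unadjusted). The list averaged 3.76 in A3, 3.80 in A4 and 3.75 in A5 among induced cultures, against 3.83 in A3, 3.78 in A4 and 3.84 in A5 among uninduced cultures, so the clone order of Srgn was not seen in this mean.

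Marker genes of cell types differed between clones as well, and their part in the values of Srgn and Sdc4 was not tested. Of 82 marker genes in 7 lists, 12 (14.6%) differed between clones, against 3.09% of all genes, and 0 differed on induction. These lists include the 13 naive pluripotency genes of the ES cells themselves, of which Dppa3 was called. The 14 blood and endothelium genes, the cell types in which Srgn is best known, averaged 5.30 in A3, 5.18 in A4 and 5.17 in A5 among induced cultures, against 5.23 in A3, 5.24 in A4 and 5.18 in A5 among uninduced cultures. Of these 14, 4 were called, with Cd34, Tek and Cd68 higher in A3 and Kit lower in A3. Ptprc, the common leukocyte marker, lay between 2.48 and 2.89. The 8 trophoblast genes averaged 6.06 in A3, 6.41 in A4 and 6.31 in A5 among induced cultures, against 6.11 in A3, 6.33 in A4 and 6.27 in A5 among uninduced cultures, with Tfap2c, Plet1 and Krt18 lower in A3 and Ascl2 higher. Dppa3 was lower in A3. The other markers called were Eomes, lower in A3, Lama1, higher in A3, and Dab2, for which A3 overlapped the other clones. The 9 neural and 12 fibroblast genes gave 0 calls at their highest probe sets. Over all their probe sets, 1 was called in each of these 2 lists. The poly-A control transcripts added to the RNA averaged 5.96 in A3, 5.67 in A4 and 5.68 in A5 among induced cultures, against 5.72 in A3, 5.62 in A4 and 5.34 in A5 among uninduced cultures.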

How the data were processed

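Total RNA of 6 cultures had been hybridised to Affymetrix mouse whole-genome arrays, 1 array per culture, 3 induced and 3 uninduced. Each probe set has 1 deposited log2 value per array, computed by the authors with RMA in affy (background correction, quantile normalization between arrays, summarization of probes). The versions, and which arrays were normalized together, are not given in the sources used here. RMA pulls arrays to 1 distribution and compresses differences at low levels. Of 45101 probe sets, 64 controls were left out and 45037 tested without a filter. The array's table gave 1 symbol for 34945, several for 932 and none for 9160. The number of arrays limits the precision.

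Members, gene lists and tests were chosen with earlier results of these data known. Groups and clones were taken from the sample labels. Induced minus uninduced was fitted in limma 3.58.1 (R 4.3.3) without a block, as the methods give only a t-test and say nothing of pairing. The clone term was tested with the moderated F-test of limma, and then by pairs of clones, with induction as a covariate. Tests were two-sided, with Benjamini-Hochberg adjustment over all 45037 probe sets and a threshold of 0.05. With 1 array per clone and condition, whether clones respond differently could not be fitted. For lists, the highest probe set stood for a gene, and 10 list genes were not analysed here. Named genes were all member probe sets and the 5 genes nearest to the highest probe sets of Srgn and Sdc3. From each list they were the genes past either test, or otherwise up to 3 with the smallest unadjusted p of either fit. The code was tested on simulated data. Alternatives were clone as a replicate block, the methods' t-test, an intensity trend, a mean of at least 5, a repeated quantile normalization, no induction term, and each array or clone left out. For partner genes, a call at any probe set of the gene was a further alternative.

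The arrays pair by clone. After group means were taken out, the correlation of induced with uninduced array was 0.524 for A3, 0.376 for A4 and 0.210 for A5, while arrays of different clones gave -0.407 to 0.0689. Promoter windows are RefSeq's on GRCm38.p6, and no genome build is named for the array's probes.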

Additional observations from a re-analysis of the deposited data

Results flagged for a closer look

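Gpc6 at probe set 1437417_s_at moved in opposite directions in different clones on induction. Induced minus uninduced was 0.33 in A5 and 0.19 in A3, against -0.29 in A4 (log2). With 1 array per clone and condition this difference between clones was not tested. The probe set had a mean of 2.76, near the bottom of the scale, its suffix marks probes that match several transcripts, and the other 4 probe sets of Gpc6 had differences of -0.36 to 0.31 in A4 and -0.012 to 0.25 in A5.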

How the results depend on the processing

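With 3 arrays per group and 2 per clone, 1 array can decide a call. Between induced and uninduced cultures, 0 members, 0 partner genes and 0 of all probe sets passed under every alternative run. The fit with clone as a replicate block changed no call: with that block Srgn differed by 0.34 with a 95% interval of 0.10 to 0.58 (limma adjusted p = 0.843). Leaving out each array or clone moved the difference on induction from -0.48 to 1.01 for Srgn, -0.11 to 0.075 for Sdc1, -0.025 to 0.14 for Sdc2, -0.15 to 0.16 for Sdc4, -0.14 to 0.070 for Gpc1, -0.22 to 0.010 for Gpc3 and -0.043 to 0.13 for Gpc6, each range including 0. Leaving out 1 array unbalances the clones in the fit without a block. With whole clones left out, Srgn stayed between 0.19 and 0.47 and Gpc3 between -0.11 and -0.06, whereas Sdc1, Sdc2, Sdc4, Gpc1 and Gpc6 had both signs. Sdc4 also turned to -0.00371 when normalized again. The sign stayed for Gpc4 1421088_at (-0.20 to -0.07). Sdc3 was chosen on this contrast, so nothing is read from its ranges, -0.36 to -0.26 for 1436482_a_at and -0.16 to -0.07 for 1420853_at. At 1436482_a_at the groups did not overlap, so no left-out array or clone could change the sign.

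For the clones, the members called other than Srgn were 0. They became 1 with no induction term (Sdc4), 1 when normalized again (Sdc4), 2 with an intensity trend and 2 when only means of at least 5 were kept (Sdc4 and Gpc3 in both), and 0 to 1 with an array or clone left out. Sdc4 had an adjusted p of 0.0496 without the uninduced A5 array, 0.0446 without the induced A5 array and 0.0189 without clone A5, against 0.217 without the uninduced A4 array and 0.192 without the induced A3 array. With the trend, calls over all probe sets were 2641 for the F-test, 3192 for A3 minus A4, 1746 for A3 minus A5 and 59 for A4 minus A5. With a mean of at least 5 they were 1885, 2615, 1467 and 38, where fewer probe sets are tested. With an array or clone left out they ran from 26 to 1427, 376 to 1427, 164 to 794 and 6 to 26, and the 26 of the F-test came without clone A3. Partner genes called were 17 with the trend and 10 when a call at any probe set of the gene counted. They were 0 to 8 with an array or clone left out, with 0 without clone A3 and 1 without the induced A3 array. The cause of these shifts was not tested.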
